A study of Mus musculus with 7 samples.

Results

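The genes described here are 10 transcription factor and cofactor genes of the red cell and platelet lineages, Gata1, Gata2, Klf1, Tal1, Nfe2, Zfpm1, Gfi1b, Lmo2, Bcl11a and Myb. They were taken by symbol from the gene list of the count matrices, in which all 10 were found among 32285 genes. The study collected droplet single-cell RNA libraries from 7 mouse livers on a C57BL/6J background. Every library is labelled as liver tissue of a hepatoblastoma murine model, and the labels give 0 groups. In the study's text NEJ723, NEJ709, NEJ687 and NEJ634 are tumors of ABC-Myc mice, in which Alb-Cre removes a stop cassette and human MYC is made from the CAG-MYC allele in cells of the hepatocyte lineage. It describes 3 further single-cell samples as healthy controls without naming them, and NEJ638, NEJ654 and NEJ677 are the libraries left. Its control animals in general were littermates that lack 1 or both of these alleles. Ages of these animals were not given in the sources used here, and the label of NEJ709 describes its cells as NEJ634. Groups were therefore not formed, no difference between libraries was tested, and each library is given by its own value.

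GATA factors bind DNA words that contain GATA, and Gata2 is used by stem and progenitor cells, mast cells and basophils, whereas Gata1 drives red cell, platelet, mast cell and eosinophil development. Tal1 and Lmo2 are the DNA-binding and bridging parts of a complex with GATA factors. Zfpm1 (FOG1) is the cofactor that GATA1 binds, and Klf1 is the erythroid Krüppel-like factor that activates adult beta globin. Nfe2 is the large subunit of a globin- and platelet-gene activator, and Gfi1b is a repressor that acts within the red cell and platelet lineages. Myb keeps progenitors dividing and Bcl11a represses fetal globin genes and is required by B cells and plasmacytoid dendritic cells. The liver is the main site of red cell formation in the fetus and gives it up to the bone marrow around birth.

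After calling of cells, limits on quality and removal of likely doublets, 72522 cells remained, from libraries of 40214395 to 132485391 UMIs (unique molecular identifiers, 1 per captured transcript molecule). Of 38 clusters, 5 carried red cell membrane and metabolism markers (Rhd, Ermap, Hemgn and others) and were called erythroid-like. The 10 factors were used neither for clustering nor for naming. They held 14157 cells, with 6569 in NEJ723, 4027 in NEJ687, 1472 in NEJ638, 834 in NEJ677, 505 in NEJ709, 414 in NEJ654 and 336 in NEJ634. A further 20071 cells stayed unnamed, 12738 of them in NEJ709, where the unnamed cells held Gata1 at 35.9 CPM (counts-per-million, defined below) and the free RNA at 30.6. Of the UMIs counted for each factor in NEJ709, 67.8 to 80.5% lay in unnamed cells and 8.91 to 23.7% in erythroid-like cells. The erythroid-like levels of NEJ709 thus describe the smaller part of these UMIs. Barcodes found in more than 1 library made up 1.89% of erythroid-like cells (268 cells). Of this kind were 9 of 19 erythroid-like cells under 20% haemoglobin in NEJ654 and 6 of 12 in NEJ677. These small pools are therefore not read as stages, but their cells remain among the erythroid-like cells of their libraries. The haemoglobin share of the free RNA in near-empty droplets ran from 1.47% in NEJ638 to 33.6% in NEJ709. In simulations from the real profiles, shallow haemoglobin-rich barcodes of NEJ709 and NEJ687 resembled that free RNA and were not called as cells (0 of 100 in NEJ709 above 50% haemoglobin), so that no share of cells per stage is read from these libraries.

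Levels are UMIs of a gene summed over the cells of 1 library and pool, in counts-per-million (CPM) of the UMIs left after the haemoglobin genes were taken out of the total. Erythroid-like cells were ordered by the share of haemoglobin genes in their UMIs, with limits at 20, 50 and 80%, and pools of at least 20 cells were used. Values in parentheses are exact 95% Poisson intervals for levels and Clopper-Pearson intervals for shares, and both cover counting error only. Because each library was 1 liver with no labelled replicate, an interval says nothing of the spread between animals.

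Promoter sequence is shown for the 3 factors with a GATA word before their start, the word that GATA factors are known to bind, and for Gata1, whose stretch holds 3 CACC boxes. The other promoters that matched are given by count. Of the 10 genes, 8 had RefSeq promoters in the reference used here (GRCm38.p6), and Nfe2 and Lmo2 had none. The 250 bases before the start were searched on both strands for a GATA word (AGATAA and likewise TGATAA, or else AGATAG and likewise TGATAG), for the kind of word bound by Klf1, called here a CACC box (CCNCNCCC), and for an E-box (CANNTG, the kind bound by Tal1 with its partners). A GATA word was found in 3 of the 10 promoters of these 8 genes (Gfi1b, Klf1 and Tal1), and in 26.5% of all 32851 promoters. A CACC box was found in 8 of the 10 (7 genes) against 45.9% of all promoters, and an E-box in 4 of the 10 (4 genes) against 66.2%. Capitals below mark the GATA word in the first 3 sequences and the CACC boxes in that of Gata1, all written 5′ to 3′ on the strand of the gene. In those of Tal1 and Klf1 the GATA word is read on the opposite strand. They lie at chr2:28622063-28622136 on the minus strand for Gfi1b, chr4:115056187-115056260 on the plus strand for Tal1, chr8:84901868-84901941 on the plus strand for Klf1 and chrX:7967911-7968015 on the minus strand for Gata1. A match is a description of letters, and binding was not measured.
Gfi1b: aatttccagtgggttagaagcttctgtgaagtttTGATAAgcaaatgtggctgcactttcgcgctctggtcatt
Tal1: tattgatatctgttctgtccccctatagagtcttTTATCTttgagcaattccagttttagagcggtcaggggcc
Klf1: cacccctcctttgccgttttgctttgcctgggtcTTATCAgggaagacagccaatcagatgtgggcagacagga
Gata1: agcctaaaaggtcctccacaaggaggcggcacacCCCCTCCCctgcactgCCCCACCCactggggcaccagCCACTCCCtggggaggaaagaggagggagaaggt

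The GATA word begins 120 bases before the start of Gfi1b, 205 bases before that of Tal1 and 80 bases before that of Klf1. The 3 CACC boxes of Gata1 begin 71, 55 and 34 bases before the start. By GENCODE M21, the stretches of Gfi1b and Tal1 lie upstream of any annotated gene, the last 14 bases of the Klf1 stretch fall in an annotated exon of Klf1, and the stretch of Gata1 lies between exons inside the longer annotated gene.

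Gata2 and Myb, the factors known for progenitors, and Bcl11a were read first. Gata2 stood at 12.97 CPM in NEJ634 (7.92 to 20.03), 31.5 in NEJ709 (19.98 to 47.3), 21.5 in NEJ723 (18.9 to 24.5) and 7.37 in NEJ687 (6.04 to 8.90) under 20% haemoglobin. At 20 to 50% it stood at 8.94 CPM in NEJ634 (1.84 to 26.1), 0 in NEJ709 (0 to 4.81), 1.09 in NEJ723 (0.355 to 2.55) and 0.454 in NEJ687 (0.0550 to 1.64). Gata2 was thus lower, with intervals apart, in NEJ709, NEJ723 and NEJ687, while the intervals overlapped in NEJ634. In NEJ709 the 23 UMIs of the first stage came from 6.58% of its 76 cells, and the interval does not cover the spread between cells. From under 20 to 50 to 80% haemoglobin its log2 difference was -3.88 in NEJ723 and -4.09 in NEJ687. In NEJ709 it was -2.18 or lower, counted against 3 UMIs in the pool, and NEJ634 held 0 UMIs in a pool too shallow to give a fold. The free RNA carried Gata2 at 1.40 to 10.2 CPM over the 7 libraries. The first-stage level of NEJ687 lay within this range, and the first-stage interval of NEJ634 overlapped it.

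Myb, the progenitor factor, gave the same order with more UMIs. Its level under 20% haemoglobin was 166 CPM in NEJ634 (146 to 188), 167 in NEJ709 (139 to 200), 124 in NEJ723 (117 to 131) and 73.2 in NEJ687 (68.9 to 77.7). At 20 to 50% haemoglobin it was 8.94 CPM in NEJ634, 2.61 in NEJ709, 6.12 in NEJ723 and 2.27 in NEJ687. At 50 to 80% it was 10.1, 6.98, 3.41 and 1.73 CPM in the same order. In every one of these libraries the intervals of the first stage lay above those of the later stages, and the later values did not exceed the free RNA, at 16.7 to 30.6 CPM in these libraries. The log2 difference from the first to the third stage was -4.03 in NEJ634, -4.58 in NEJ709, -5.18 in NEJ723 and -5.41 in NEJ687, and it kept its sign under every scaling tried.

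Bcl11a, the globin repressor, took a course that differed by library. It stood at 59.6 CPM in NEJ634, 72.6 in NEJ709, 80.8 in NEJ723 and 75.7 in NEJ687 under 20% haemoglobin. At 20 to 50% it stood at 23.8 CPM in NEJ634 (10.3 to 46.9) and 27.8 in NEJ723 (23.1 to 33.0), below the first stage, and at 93.8 in NEJ709 (73.4 to 118) and 121 in NEJ687 (111 to 132). The value of NEJ687 lay above its own first stage (71.3 to 80.2), and that of NEJ709 overlapped it (54.4 to 94.99). At 50 to 80% the levels were 10.1, 4.65, 5.84 and 38.8 CPM in NEJ634, NEJ709, NEJ723 and NEJ687, all below the first stage with intervals apart.

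**Figure D1:**
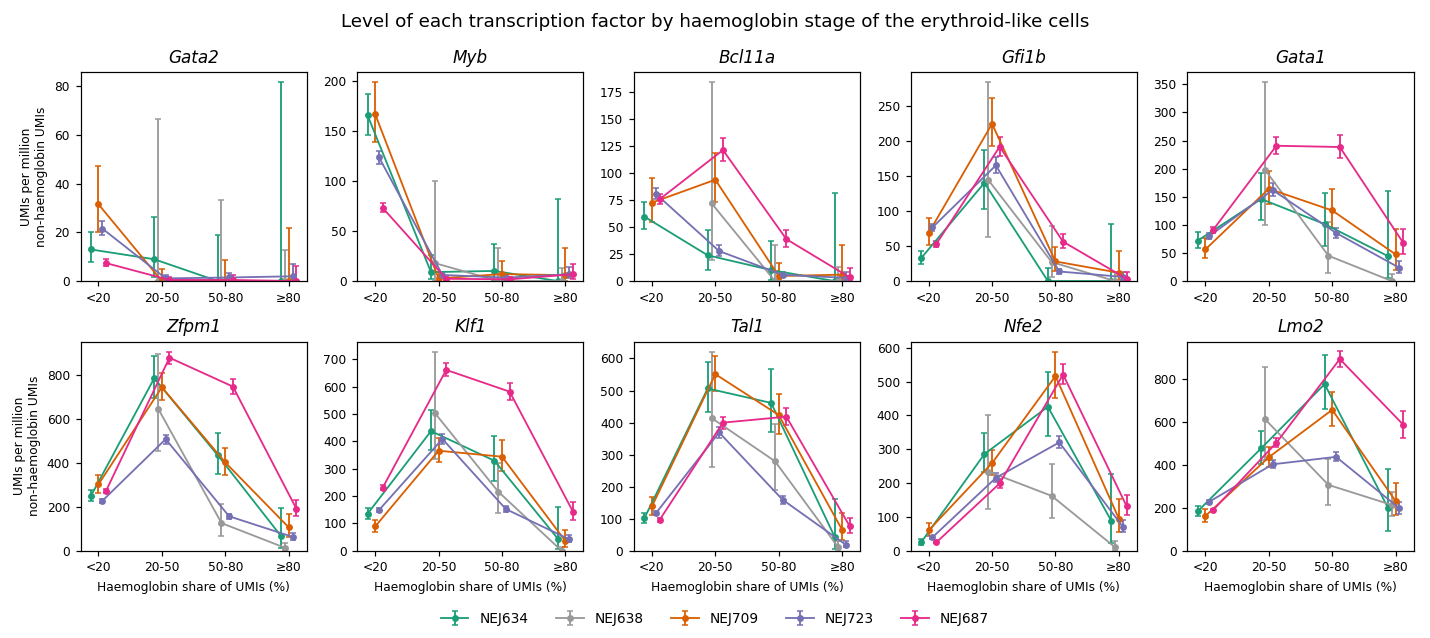
Level of each factor (vertical axes, CPM over non-haemoglobin UMIs, a scale of its own for each gene) by haemoglobin share of UMIs (horizontal axes, %) in the erythroid-like cells of the 5 libraries with at least 20 cells in 3 stages or more. Points are single libraries and bars are exact 95% Poisson intervals; Gata2 and Myb stand highest under 20%, Gfi1b at 20 to 50%, and Nfe2 at 50 to 80% in NEJ634, NEJ709, NEJ723 and NEJ687.

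Gata1 and its cofactor Zfpm1 were then followed over the same stages. Gata1 went from 72.0 CPM (59.2 to 86.7) to 146 (108 to 193) in NEJ634, from 56.2 (40.3 to 76.2) to 164 (137 to 195) in NEJ709, from 79.96 (74.7 to 85.4) to 162 (151 to 174) in NEJ723 and from 90.7 (85.9 to 95.7) to 241 (226 to 256) in NEJ687 between the first and the second stage. At 50 to 80% haemoglobin it was 101 CPM in NEJ634 (61.9 to 157), 126 in NEJ709 (94.4 to 164), 85.7 in NEJ723 (77.0 to 95.1) and 238 in NEJ687 (219 to 259). In all 4 libraries the second stage lay above the first with intervals apart, and in NEJ723 alone the third lay below the second with intervals apart. NEJ638, whose first stage held 14 cells, had 198 CPM (98.9 to 354) at 20 to 50% and 45.1 (14.6 to 105) at 50 to 80%.

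Zfpm1 stood at 250 CPM in NEJ634, 303 in NEJ709, 227 in NEJ723 and 273 in NEJ687 under 20% haemoglobin. At 20 to 50% it stood at 786 CPM (694 to 887), 745 (685 to 809), 509 (488 to 530) and 880 (852 to 908) in the same order. At 50 to 80% it stood at 436, 402, 157 and 748 CPM, each below its second stage with intervals apart. In NEJ723 the third stage (145 to 170) lay below even the first (219 to 237), which was not so in the others.

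Klf1, the erythroid factor of the adult beta globin gene, took a like course. It went from 136 CPM (118 to 155) to 438 (370 to 515) in NEJ634, from 89.1 (68.7 to 114) to 366 (325 to 411) in NEJ709, from 149 (142 to 156) to 409 (391 to 428) in NEJ723 and from 232 (224 to 239) to 662 (638 to 686) in NEJ687 between the first and the second stage. At 50 to 80% haemoglobin it was 329 CPM in NEJ634, 344 in NEJ709, 153 in NEJ723 and 582 in NEJ687. The third stage overlapped the second in NEJ634 and NEJ709 and lay below it in NEJ723 and NEJ687. At 80% or more, Klf1 stood at 44.3, 35.6, 42.0 and 143 CPM in these libraries.

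Tal1, a DNA-binding part of the complex, stood at 101 CPM in NEJ634, 138 in NEJ709, 116 in NEJ723 and 95.8 in NEJ687 in the first stage. In the second it stood at 506 CPM (433 to 588), 551 (500 to 606), 369 (352 to 387) and 400 (381 to 419). In the third it stood at 461 CPM (371 to 566), 423 (364 to 490), 159 (147 to 172) and 418 (392 to 446). The second stage was above the first in all 4 libraries, and from the second to the third Tal1 overlapped in NEJ634 and NEJ687 and was lower in NEJ709 and NEJ723.

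Gfi1b, the repressor, was held to the middle of the range. Its level was 32.4 CPM (24.1 to 42.7), 68.5 (50.8 to 90.3), 76.4 (71.3 to 81.8) and 52.7 (49.0 to 56.5) in the first stage of NEJ634, NEJ709, NEJ723 and NEJ687. It was 140 CPM (102.9 to 186), 224 (192 to 260), 165 (153 to 177) and 191 (179 to 205) in the second, and 0 (0 to 18.7), 27.9 (14.4 to 48.8), 13.6 (10.3 to 17.7) and 56.1 (46.8 to 66.6) in the third. The second stage stood above both others, with intervals apart, in all 4 libraries. In NEJ687 the first and the third stage overlapped, and in the other libraries the third was the lower.

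Lmo2 and Nfe2 were the factors that stood highest late in each of NEJ634, NEJ709, NEJ723 and NEJ687. Lmo2, the bridging protein, had 184 CPM in NEJ634, 162 in NEJ709, 228 in NEJ723 and 189 in NEJ687 in the first stage. It had 776 CPM (658 to 909), 656 (582 to 737), 437 (417 to 458) and 892 (854 to 931) in the third stage, each above the first. At 80% or more haemoglobin it still had 200 CPM (91.2 to 379), 231 (164 to 316), 198 (171 to 227) and 587 (526 to 652), against 33.5 to 124 in the free RNA of the same libraries. NEJ654 and NEJ677, whose erythroid-like cells were 79.0% and 86.9% in this last stage, had Lmo2 at 157 CPM (96.0 to 243) and 213 (160 to 277). In NEJ638 it stood at 213 CPM (164 to 273). In these 3 libraries Gata1, Gata2 and Gfi1b were at 0 UMIs in the last stage.

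Nfe2, the activator of globin and platelet genes, went from 24.6 CPM (17.4 to 33.8) to 426 (340 to 527) in NEJ634, from 60.3 (43.8 to 80.9) to 516 (451 to 589) in NEJ709, from 39.8 (36.1 to 43.7) to 320 (303 to 338) in NEJ723 and from 24.6 (22.2 to 27.3) to 521 (492 to 551) in NEJ687 between the first and the third stage. The log2 difference was 4.11 in NEJ634, 3.10 in NEJ709, 3.01 in NEJ723 and 4.40 in NEJ687. It stayed above 1 in each library when haemoglobin was counted in the total (2.68, 1.64, 1.38 and 2.94 in the same order). In the second stage Nfe2 had stood between, at 199 to 286 CPM.

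A call was set at 2-fold or more, in the same direction, in all 4 libraries with both the first and the third stage. By this rule 1 of 10 factors was higher at 50 to 80% haemoglobin (Nfe2), as were 11.7% of the 6597 genes tested (771 genes). Another 1 of 10 was lower (Myb), as were 28% of the genes tested (1848 genes). For the higher direction 1 of 10 lies near the 11.7% of all genes, and no difference from it is read. For the lower direction 1 of 10 was below the 28% of all genes, a gap that rests on few factors. Among the 2379 genes of at least 100 CPM in either stage, 22.7% were higher and 32.6% lower by the same rule. The median log2 difference was 0.72 over the 10 factors and -0.83 over all genes tested. Lmo2 missed the call through NEJ723 alone (log2 difference 0.94 there, 2.02 to 2.24 in the others), as did Klf1 (0.04 there, 1.28 to 1.95 in the others) and Tal1 (0.45 there, 1.61 to 2.19). Without NEJ723, 4 of 10 were called higher, against 14.4% of the 6527 genes tested in the other 3 libraries. Free RNA was put at 22.8% of the UMIs in the third stage of NEJ723, against 0 to 2.37% in the others. Lmo2 was called in all 4 libraries with free RNA subtracted. Klf1, Tal1 and Lmo2 were called with only barcodes above the rank limit of cell calling. At 50 to 80% haemoglobin, however, 3095 of the 3128 cells of NEJ723 lay at or below that limit. In NEJ723 these calls thus rest on the few cells left above it. The cause of the lower differences in NEJ723 was not tested. Bcl11a missed the lower call through NEJ687 alone (-0.96 there, -2.56 to -3.96 in the others), as did Gfi1b (0.09 there, -1.09 to -2.49 in the others, with NEJ634 a bound), and Gata2 missed it through NEJ634, which gave no fold. Without NEJ687, 3 of 10 were called lower, against 30.7% of all genes, and without NEJ634, 2 of 10, against 37.3%. With erythroid cells chosen by a limit set per cell in place of clusters, 5 libraries had both stages and 0 of 10 factors passed in all of them in either direction, against 1.3% higher and 1.41% lower of 9218 genes. In the 4 libraries used here, that choice of cells gave Nfe2 as higher and Gfi1b and Bcl11a as lower, while Myb was not called.

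The total used to scale the counts bears on these directions. With haemoglobin counted in the total, 3.62% of 5801 genes were called higher and 69.4% lower, and the median over all genes moved from -0.83 to -2.56. On that scale the third stage lay below the first for Gata1 in all 4 libraries (log2 difference -0.94 in NEJ634, -0.30 in NEJ709, -1.53 in NEJ723 and -0.066 in NEJ687), although on the main scale it was above it in each, with intervals apart in NEJ709 and NEJ687 and overlapping in NEJ634 and NEJ723. Klf1 then stood at -0.15 in NEJ634, 0.49 in NEJ709, -1.60 in NEJ723 and -0.13 in NEJ687, and Zfpm1 at -0.63, -1.05, -2.17 and -0.0077 in the same order. Lmo2 and Tal1 turned below 0 in NEJ723 alone, at -0.69 and -1.18, and Gfi1b turned in NEJ687, from 0.09 to -1.37. The directions of Myb, Bcl11a and Nfe2 were the same with either total in all 4 libraries, and that of Gata2 in the 3 that gave a fold on the main scale.

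Finer bins of the haemoglobin share could be filled in NEJ723 and NEJ687, the libraries with the most erythroid-like cells. Gata2 and Myb were highest in the first bin, under 2% haemoglobin, in both libraries. Gata2 stood there at 32.9 CPM (28.6 to 37.8) in NEJ723 and 10.99 (8.91 to 13.4) in NEJ687, and Myb at 201 (190 to 212) and 115 (108 to 123). The fall was not even in NEJ723. There Gata2 was at 0 CPM (0 to 3.18) at 2 to 5% and at 13.5 (8.46 to 20.4) at 5 to 10%. Myb was at 12.9 CPM (7.23 to 21.3) and 46.0 (36.2 to 57.7) in the same bins. Gfi1b was highest at 20 to 35% in both, at 183 CPM in NEJ723 and 198 in NEJ687. Klf1 and Zfpm1 were highest at 35 to 50% in both, Klf1 at 460 and 803 CPM and Zfpm1 at 518 and 992. Lmo2 and Nfe2 were highest at 50 to 65% in NEJ723 (527 and 373 CPM) and at 65 to 80% in NEJ687 (933 and 573 CPM). The other factors differed by library: Gata1 was highest at 20 to 35% in NEJ723 and 50 to 65% in NEJ687, Tal1 at 35 to 50% and 50 to 65%, and Bcl11a under 2% and at 20 to 35%. For several of these the neighbouring bin overlapped the highest one, as 35 to 50% did for Gata1 in both libraries, so the order is of broad ranges and not of single bins.

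**Figure D2:**
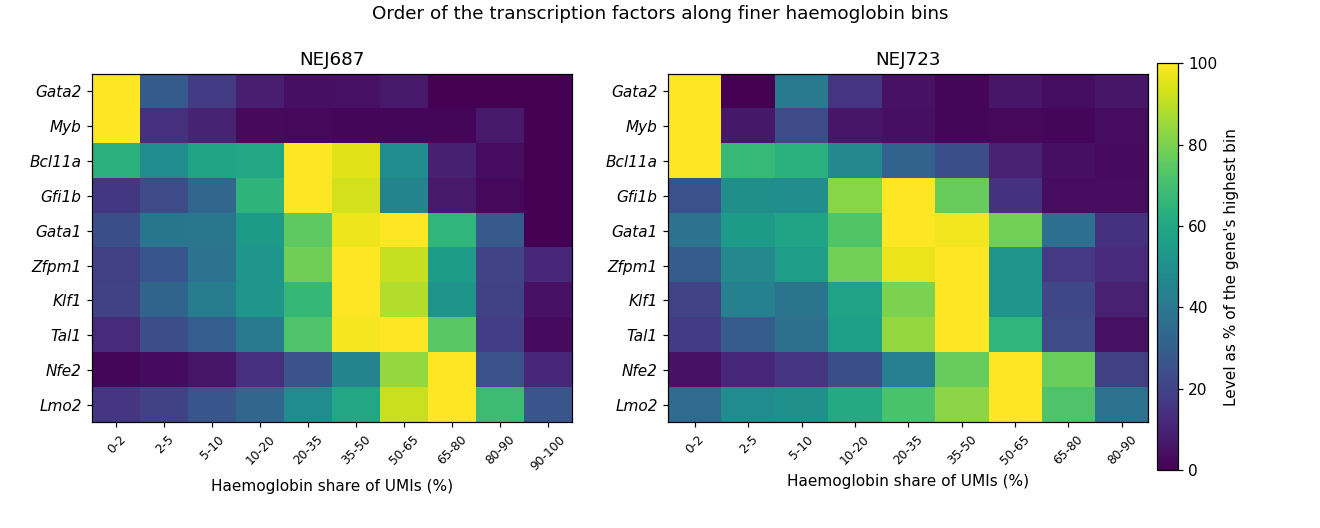
Level of each factor in finer bins of the haemoglobin share (horizontal axes, %), as a percentage of that gene's highest bin in the library (colour), for NEJ687 and NEJ723. The rows are ordered by eye from factors highest at the left (Gata2, Myb) to those highest at the right (Nfe2, Lmo2); the scale within a row removes the level of the gene.

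Markers of other cell types were checked in the first stage, where Gata2 and Myb were highest. The summed level of the megakaryocyte markers was 23.3 CPM in NEJ634, 28.8 in NEJ709, 80.1 in NEJ723 and 261 in NEJ687, against 161, 169, 117 and 247 in the free RNA. Of these 10 markers, 4, 5, 0 and 1 were at 0 UMIs in NEJ634, NEJ709, NEJ723 and NEJ687. The part of megakaryocyte-like cells in the Gata2 level of this stage was not tested. The summed level of the basophil and mast cell markers was 6.48, 45.2, 3.58 and 4.50 CPM in the same order, against 8985 in the basophil-like cells of NEJ634, 14885 in those of NEJ723 and 37960 in those of NEJ687. NEJ709 had both the highest Gata2 level and the highest level of basophil markers in this stage, and the part of such cells in its Gata2 level was not tested. Of the 8 basophil and mast cell markers, 3 were at 0 UMIs there (Ms4a2, Fcer1a and Cd200r3), against 5 in NEJ634, 1 in NEJ723 and 2 in NEJ687. The promyelocyte markers summed to 65.5 CPM in NEJ634, 30.1 in NEJ709, 19.0 in NEJ723 and 21.8 in NEJ687 in this stage, and the free RNA held 195 to 813. All 5 of these markers were detected in NEJ634, NEJ723 and NEJ687, and 4 in NEJ709, where Ms4a3 was at 0. The B cell markers summed to 9.28 to 16.4 CPM, against 52.0 to 224 in the free RNA, with 3, 5, 1 and 3 of 8 at 0 in NEJ634, NEJ709, NEJ723 and NEJ687. The part of such cells in the Myb level of this stage was not tested. The first stage of NEJ709 was also shallow, with 76 cells at a median of 1186 UMIs, against 8428 to 12994 in the other libraries. Of its cells 14.5% held a UMI of Myb, against 25.9 to 37.9% in this stage of the other libraries. Levels are sums of UMIs over cells, so the deeper cells weigh most in the levels of this pool.

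The share of cells with at least 1 UMI of a factor was compared after each cell had been thinned to 500 non-haemoglobin UMIs. Klf1 was found in 7.08% of 819 cells of NEJ723 under 20% haemoglobin (5.42 to 9.06), in 16.9% of 1114 cells at 20 to 50% (14.7 to 19.2) and in 5.21% of 2745 cells at 50 to 80% (4.41 to 6.11). In NEJ687 the shares of Klf1 were 11.2% of 926 cells, 29.1% of 790 and 20.8% of 1183. Before thinning, the shares were 58.7, 59.3 and 14.2% in NEJ723 and 66.7, 88.4 and 52.6% in NEJ687, and thinning left out 81 and 383 shallower cells of the second and the third stage in NEJ723 and 21, 9 and 34 cells of the 3 stages in NEJ687. The T/NK-like cells, which do not use Klf1, had 0.193% in NEJ723 and 0.289% in NEJ687 at median depths of 4818 and 3809 UMIs, below each of these stages with intervals apart (median depths of 4262 to 12994 UMIs). In NEJ723 the unnamed cells had 2.04%, and the megakaryocyte-like cells had 4.76% of 63 cells (0.993 to 13.3), which overlapped the first and the third stage.

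Nfe2 was found in 3.79, 10.2 and 12.1% of the thinned cells of the same stages in NEJ723, and in 3.02, 11.01 and 21.9% in NEJ687, against 0.386 and 0% in T/NK-like cells. Gfi1b was found in 3.42, 6.73 and 0.401% in NEJ723 and in 3.46, 9.11 and 1.18% in NEJ687. The shares of Nfe2 had the order of its levels in both libraries, and so had those of Gfi1b in NEJ723. In NEJ687 the share of Gfi1b was lower in the third stage (0.648 to 1.98) than in the first (2.38 to 4.84), where its levels overlapped, so no order of these stages is read. Those of Gata2 rested on at most 3 cells with a UMI in any of these stages and are not read further.

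The factors were then compared across the blood and liver cell types of the same libraries. A factor was counted where its level was highest in the erythroid-like cells of all types with at least 20 cells. In NEJ634 this was so for 5 of 10 factors tested, against 13.4% of all genes, in NEJ709 for 7 of 9 (13.9%), in NEJ723 for 7 of 10 (11.1%) and in NEJ687 for 5 of 10 (10.5%). In NEJ638 it was so for 6 of 10 (4.28%), in NEJ654 for 4 of 9 (4.43%) and in NEJ677 for 1 of 7 (2.3%). The 4 of NEJ654 include Gata1 and Myb, with 5 and 15 UMIs in its erythroid-like cells. Of these, 1 Gata1 UMI lay at 50 to 65% haemoglobin, 1 Myb UMI at 90 to 100%, and the rest under 50%. The count of NEJ654 thus rests in part on its few cells under 50%, among them the shared barcodes given above. Among cell types Lmo2 had its highest level in the erythroid-like cells of 7 of 7 libraries, at 161 to 369 CPM (median 296), with its interval apart from the next type in each. Klf1 was highest in 7 of 7 as well, at 3.44 to 352 CPM (median 199), with its interval apart in 6, the exception being NEJ677 with 1 UMI. Unnamed cells were not among the types compared. They held 24 of the 33 Klf1 UMIs of NEJ654 and 23 of the 31 of NEJ677, against 6 and 1 in erythroid-like cells. For these libraries the rank of Klf1 thus holds among named types only and rests on few UMIs. Zfpm1, Tal1 and Gfi1b were highest there in 5 libraries, with intervals apart in 4 of these for Zfpm1 and in 2 each for Tal1 and Gfi1b. Gata1 was highest there in 4 libraries, with intervals apart in 3. Nfe2 was highest there in 2 libraries, NEJ709 and NEJ723, with intervals apart in 2.

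**Figure D3:**
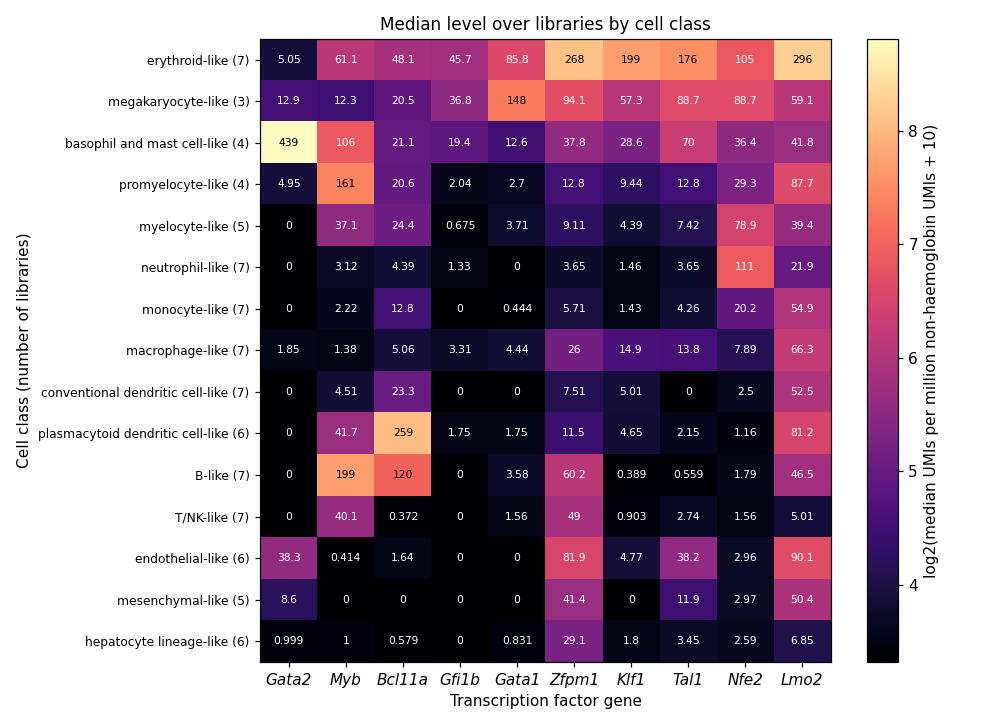
Median level over the libraries that had at least 20 cells of a type (CPM over non-haemoglobin UMIs, numbers in the cells; colour on a log2 scale after 10 was added) for each cell type (rows, with the number of libraries) and factor (columns). Columns are to be read one at a time; Gata2 is highest in basophil and mast cell-like cells (439), Bcl11a in plasmacytoid dendritic cell-like cells (259), Myb in B-like cells (199), and Zfpm1 (268), Klf1 (199), Tal1 (176) and Lmo2 (296) in erythroid-like cells, whereas Nfe2 has like medians in neutrophil-like (111) and erythroid-like (105) cells.

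Megakaryocyte-like cells, marked by Pf4, Itga2b, Gp9 and related platelet genes, could be read in NEJ634, NEJ723 and NEJ687, with 55, 63 and 26 cells. In NEJ634 they held Gata2 at 544 CPM (456 to 645), Nfe2 at 430 (352 to 520), Tal1 at 168 (120 to 228) and Gata1 at 160 (114 to 218). The erythroid-like cells of the same library held Gata2 at 10.9 CPM (6.88 to 16.3), Nfe2 at 105 (91.4 to 119), Tal1 at 198 (179 to 217) and Gata1 at 85.8 (73.8 to 99.2). Gata2, Nfe2 and Gata1 were thus above the erythroid-like level with intervals apart, and Tal1 overlapped it. Against the single stages of that library, however, Gata2 alone of these lay above each, since Nfe2 overlapped the third stage (340 to 527) and Gata1 the second and the third (108 to 193 and 61.9 to 157). Klf1 was below it, at 57.3 CPM (31.3 to 96.2) against 199 (181 to 219), and so was Lmo2, at 61.4 (34.4 to 101) against 286 (263 to 309). Of the 55 cells, 51 had a UMI of Gata2, and the 5 richest cells gave 24.8% of its 133 UMIs. NEJ723 and NEJ687 gave no like reading: their megakaryocyte-like cells had median depths of 934 and 696 UMIs, against 4343 in NEJ634, and held 1 and 0 UMIs of Gata2.

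Basophil- and mast cell-like cells, marked by Mcpt8, Prss34 and Cpa3, were the other site of Gata2. They held it at 208 CPM in NEJ634 (163 to 261), 466 in NEJ638 (266 to 757), 639 in NEJ723 (559 to 728) and 411 in NEJ687 (328 to 510). In NEJ634, 30 of the 155 cells had a UMI of Gata2, and the 5 richest gave 59.5% of its 74 UMIs. The 5 richest cells gave 75% of 16 UMIs in NEJ638, 28.8% of 229 in NEJ723 and 53.0% of 83 in NEJ687. The intervals do not cover this spread between cells. Endothelial-like cells held Gata2 at 19.1 to 43.3 CPM in 6 libraries, and in B-like cells it was at 0 UMIs in all 7. Gata2 was highest in basophil- and mast cell-like cells in NEJ638, NEJ723 and NEJ687, in megakaryocyte-like cells in NEJ634, in endothelial-like cells in NEJ654 and NEJ677, and in erythroid-like cells in NEJ709, which had no pool of any of those 3 types.

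The balance of the 2 GATA factors was given as the share of Gata2 in the UMIs of Gata1 and Gata2 together, and is compared between pools, not between the genes. Under 20% haemoglobin the share was 15.3% of 131 UMIs in NEJ634 (9.58 to 22.6), 35.9% of 64 in NEJ709 (24.3 to 48.9), 21.2% of 1107 in NEJ723 (18.9 to 23.8) and 7.52% of 1437 in NEJ687 (6.21 to 9.002). At 20 to 50% it was 5.77% of 52 UMIs in NEJ634 (1.21 to 15.9), 0 of 126 in NEJ709 (0 to 2.89), 0.670% of 746 in NEJ723 (0.218 to 1.56) and 0.188% of 1062 in NEJ687 (0.0228 to 0.679). The intervals of the 2 stages were apart in NEJ709, NEJ723 and NEJ687 and overlapped in NEJ634. That of the first stage of NEJ709 does not cover the spread between the few cells that held its Gata2. In the megakaryocyte-like cells of NEJ634 the share was 77.3% of 172 UMIs (70.3 to 83.4), and in basophil- and mast cell-like cells it was 94.1 to 100% in 4 libraries.

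**Figure D4:**
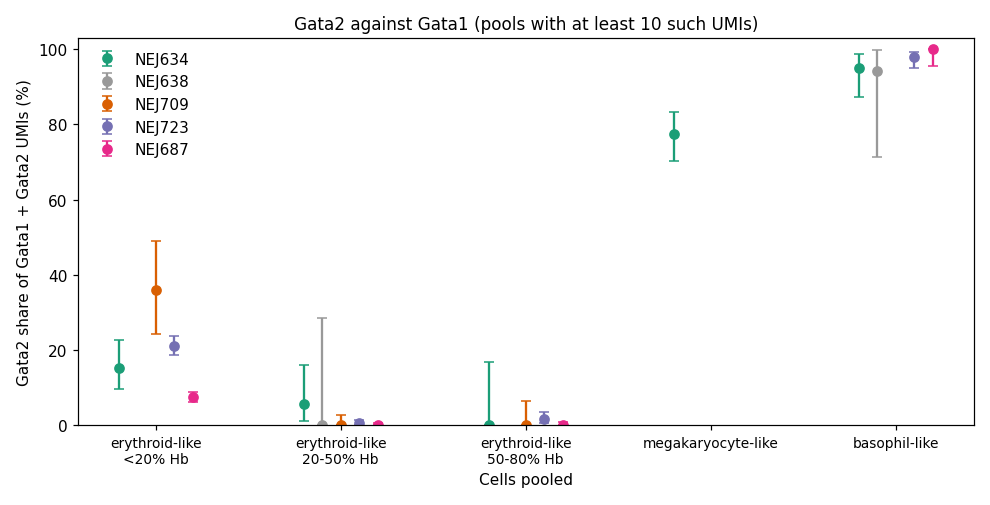
Share of Gata2 in the summed UMIs of Gata1 and Gata2 (vertical axis, %) for erythroid-like cells in 3 ranges of the haemoglobin share and for megakaryocyte- and basophil-like cells (horizontal axis), in pools with at least 10 such UMIs. Points are single libraries and bars exact 95% binomial intervals; the share lies between 7.52 and 35.9% under 20% haemoglobin, at or under 5.77% at 20 to 50%, and at 77.3% or more in the other cells.

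Other factors had a second site outside the red cell lineage. Bcl11a was highest in plasmacytoid dendritic cell-like cells in 6 libraries, at 349 CPM in NEJ638, 324 in NEJ677, 277 in NEJ723, 240 in NEJ654, 205 in NEJ687 and 129 in NEJ634. Its interval was apart from that of the next type in 5 of these. NEJ709 had no pool of these cells, and there Bcl11a was highest in B-like cells, at 181 CPM (128 to 247). Myb in B-like cells stood at 312 CPM in NEJ723, 311 in NEJ634, 231 in NEJ709, 199 in NEJ687 and 191 in NEJ638, and at 20.7 in NEJ654 and 25.3 in NEJ677. These last 2 lay far below the others, with intervals of 14.6 to 28.5 and 19.5 to 32.2. Myb in promyelocyte-like cells, the granule-making precursors of neutrophils, stood at 100 CPM in NEJ634, 199 in NEJ709, 235 in NEJ723 and 122 in NEJ687. In T/NK-like cells Myb stood at 22.3 to 111 CPM in the 7 libraries. It was highest of all types there in NEJ677, with its interval overlapping that of the next type. In basophil- and mast cell-like cells Myb stood at 58.3 to 163 CPM in 4 libraries.

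Nfe2 was present in neutrophil-like cells of all 7 libraries, at 139 CPM in NEJ709, 124 in NEJ687, 113 in NEJ677, 111 in NEJ634, 106 in NEJ723, 98.5 in NEJ654 and 40.5 in NEJ638. Apart from NEJ638 these values lay within 98.5 to 139 CPM. Among cell types Nfe2 was highest in neutrophil-like cells in 3 libraries, NEJ654, NEJ677 and NEJ687, with intervals apart in 2. It was highest in megakaryocyte-like cells in NEJ634 and in basophil- and mast cell-like cells in NEJ638, where the intervals overlapped. The free RNA held Nfe2 at 2.40 to 88.8 CPM. Tal1 stood at 25.4 to 46.5 CPM in the endothelial-like cells of 6 libraries, and Zfpm1 at 62.8 to 121 CPM. In the endothelial-like cells of NEJ677 Zfpm1 (121 CPM, 113 to 130) exceeded its level in the erythroid-like cells of that library (44.8, 23.8 to 76.6), which were mostly above 80% haemoglobin.

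The partners of these factors were read from a list of 15 cofactors and dimer partners, all tested between the first and the third stage. Of these, 4 were at least 2-fold higher and 3 lower in all 4 libraries, against 11.7% and 28% of all genes tested, and the median log2 difference was -0.27 (-0.83 over all genes). Mafk, the small Maf protein that pairs with Nfe2, was higher, with log2 differences of 2.38 in NEJ634, 2.696 in NEJ709, 2.82 in NEJ723 and 3.02 in NEJ687. Ldb1, the dimerizing protein of the Tal1 and Lmo2 complex, was lower, at -2.96, -2.53, -2.31 and -1.92, and so were Tcf12, an E-protein partner of Tal1 (median -2.85), and Cbfb, the partner of Runx1 (median -1.91). Lyl1, a relative of Tal1, and Crebbp, an acetyltransferase, had medians of 1.997 and 1.90 and each missed the call in 1 library, Lyl1 in NEJ723 and Crebbp in NEJ634.

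Of 22 other blood transcription factors, 13 had enough UMIs to be tested, of which 4 were higher and 3 lower, against the same 11.7% and 28% of all genes, with a median of -1.11. Foxo3, E2f2 and Sox6, known for roles in red cell maturation, were higher at medians of 3.01, 2.92 and 2.66, each past 2-fold in every library. Nfia and Stat5b were lower (medians -3.47 and -2.46). Stat5a, which carries signals of the erythropoietin receptor, had a median of -2.94 but was not called, as NEJ634 held 0 UMIs in the third stage.

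Of 12 receptor genes and known targets, 11 were found, 8 tested, 5 called higher and 1 lower, where all genes gave 11.7% and 28%, with a median of 2.21. Kit, the stem cell factor receptor of progenitors, was lower, from 105 to 0 CPM in NEJ634, 89.1 to 0 in NEJ709, 82.7 to 3.16 in NEJ723 and 43.3 to 1.73 in NEJ687. The survival gene Bcl2l1 and the haem synthesis genes Alas2 and Fech were higher at medians of 5.62, 5.28 and 3.27. Epor, the erythropoietin receptor, had 60.3, 48.0, 68.3 and 69.9 CPM in the first stage and 86.2, 140, 73.0 and 129 in the third, and was not called. Tbxas1 had 2 to 33 UMIs in the first stage and is not read further.

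**Figure D5:**
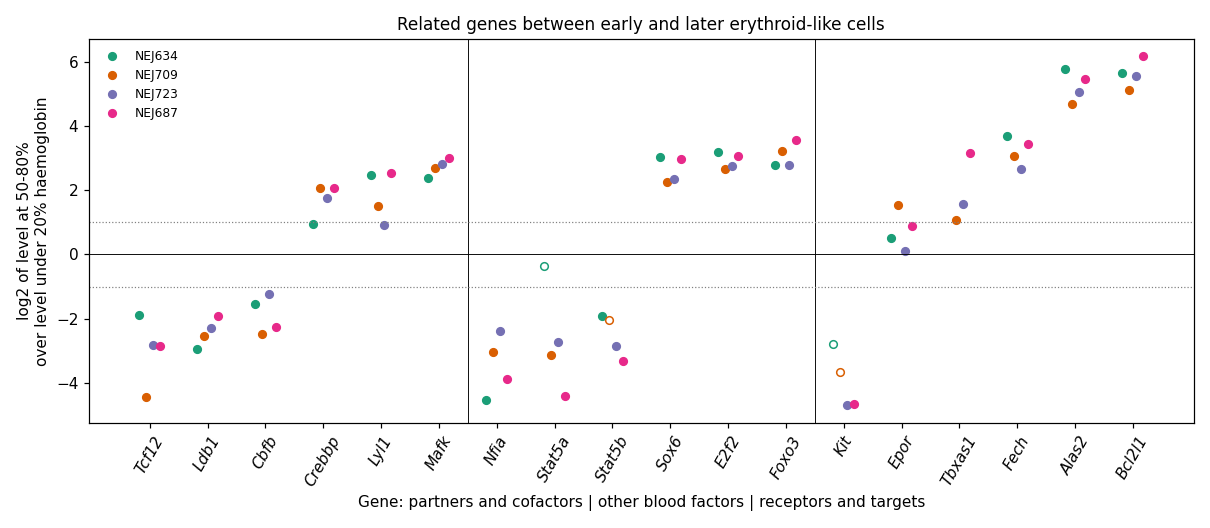
Log2 of the level at 50 to 80% haemoglobin over the level under 20% (vertical axis) for 6 genes of each list (horizontal axis), 1 point a library. Open points are bounds set by 3 UMIs where a pool held none; dotted lines mark 2-fold, and Kit lies below the lower line while Fech, Alas2 and Bcl2l1 lie above the upper line in all 4 libraries.

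The genes most like each factor were found over 93 pools of at least 50 cells of 1 library and cell type or stage, by Pearson correlation of log2(CPM + 10) with 9642 genes. These pools share libraries, depth and free RNA, the erythroid stages overlap the erythroid-like pools, and the values are a description. Klf1 was most like Ermap (0.97) and Rhd (0.96), which were among the markers that named the erythroid-like clusters, and Gata1 was most like Cldn13 (0.95) and Icam4 (0.95). Tal1 was most like Ermap (0.92) and Icam4 (0.92), Gfi1b most like Abcg4 (0.92) and C530008M17Rik (0.90), Zfpm1 most like Ubac1 (0.87) and Ptdss2 (0.87), Nfe2 most like Gadd45a (0.84) and Usp32 (0.83), and Lmo2 most like Fzr1 (0.83) and Blvrb (0.83). Gata2 was most like Slc18a2 (0.83), the vesicular monoamine transporter, and Itga2b (0.77), a platelet integrin and naming marker. Bcl11a was most like Ftx (0.76) and Map4k1 (0.75), and Myb most like Ptprcap (0.78) and Mtf2 (0.70). With 1 CPM added in place of 10, 14 of the genes named for the factors stayed among the 2 most alike and 6 did not. Those that moved farthest were Mtf2 (to rank 63), Usp32 (to 14) and Ftx (to 6). Among the factors themselves, Gata1 and Klf1 were the most alike (0.95), while Gata1 and Gata2 had 0.15.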

How the data were processed

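The 7 libraries were made with a 3′ droplet kit, and the deposited matrices hold raw UMI counts per gene and barcode, with no cell filter and no normalization by the authors. The submitters' processing notes name Cell Ranger 6.0 and the file headers name version 4, so which release made them was not settled. A genome build was not given in the sources used here, and gene positions are those of GENCODE M21 on GRCm38. Strand of counting is not stated, and Lmo2, Bcl11a and Myb overlap antisense genes and Zfpm1 overlaps Gm20388, so reads of these pairs may be shared.

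The 10 genes and the lists of related genes were chosen with earlier results of these data known. Cells were barcodes with over 1/10 of the UMIs found at the 99th percentile of each library's 3000 largest, and others of over 500 UMIs whose profile differed from free RNA (barcodes ranked 45000 to 90000) at an adjusted p of 0.01, with at most 20000 tested a library. Cells of at most 20% mitochondrial UMIs were kept (81353). Those with the highest Scrublet scores were removed at 0.8% per 1000 cells, leaving 72522, because Scrublet's own limit marked under 0.5% of cells in 5 libraries. Leiden clustering at resolution 1 (scanpy 1.11.5, 2000 variable genes, 40 components, 15 neighbours) left out the 10 genes and the related lists, and clusters were named from marker lists and are "-like" because no reference cells were used. Genes of at least 20 CPM in a stage were tested for 2-fold differences, and where a pool held 0 UMIs a bound was set at 3.

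Named beside the 10 genes were the 2 most alike genes of each and the 3 highest and 3 lowest genes of each list. No test between libraries was made, as the labels give 0 groups. Alternatives changed the total, weighting, calling, depth limit, doublets, clustering, stage limits, free RNA and pseudocount. Leaving out each library, finer bins and thinning after haemoglobin was left out were added after seeing the data. On simulated counts of 6424 genes, 50 of 50 genes changed 4-fold and 40 of 50 changed to 0.25-fold were called in the stage comparison, with 0 of 6224 unchanged genes. Shallow barcodes of 5 of 23 stages were not recovered by cell calling (0 of 100 at the shallowest depth simulated), all in NEJ709 and NEJ687, while NEJ723 kept 3095 of 3128 cells at 50 to 80% haemoglobin through the profile test alone. Of 12 listed receptors and targets 1 was not analysed here. Python 3.11.15, numpy 2.4.6 and scipy 1.17.1 were used.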

Additional observations from a re-analysis of the deposited data

Results flagged for a closer look

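The cells that stayed unnamed were not among the cell types compared above. Given for them were the Klf1 share in NEJ723, Klf1 UMIs in NEJ654 and NEJ677, and the Gata1 level and shares of UMIs in NEJ709. In some libraries unnamed cells held more of a factor than the free RNA of the same library, with intervals apart. Lmo2 stood at 54.4 CPM in the 2422 unnamed cells of NEJ634 (49.1 to 60.1), against 46.1 in the free RNA. It stood at 69.8 CPM in the 301 of NEJ638 (56.3 to 85.5, free RNA 14.0), at 56.4 in the 712 of NEJ654 (48.6 to 65.1, free RNA 33.0) and at 44.2 in the 1226 of NEJ677 (38.7 to 50.2, free RNA 29.0). Zfpm1 stood at 54.7 CPM in the unnamed cells of NEJ634 (49.4 to 60.4, free RNA 46.2) and at 24.0 in those of NEJ638 (16.4 to 33.9, free RNA 11.4). Tal1 stood at 34.5 CPM in the unnamed cells of NEJ638 (25.3 to 46.0, free RNA 3.80). Which cells these are was not tested.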

How the results depend on the processing

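Of the 10 factors, 1 was called at least 2-fold lower at 50 to 80% haemoglobin and 1 higher as reported, and the share of all genes called in the same direction under each setting follows its count. The lower count was 4 with haemoglobin in the total (69.4%), 2 as a mean over cells (17.2%), 0 at Leiden resolution 0.5 (1.64%) and 0 with a gate set per cell (1.41%), where 5 libraries instead of 4 had both stages. It was 2 without NEJ634 (37.3%) and 3 without NEJ687 (30.7%). The higher count was 2 with mitochondrial UMIs also left out (12.3%), 2 with free RNA subtracted (12.4%), 4 with barcodes above the rank limit only (11.8%), 4 with stage limits of 10, 40 and 70% (14.8%), 0 at resolution 0.5 (0.717%), 0 with the gate (1.3%) and 4 without NEJ723 (14.4%). The number of factors highest in erythroid-like cells moved with haemoglobin in the total to 3 in NEJ634 (from 5, and 6.03% of all genes), 1 in NEJ638 (from 6, 0.527%), 0 in NEJ654 (from 4, 0.295%) and 0 in NEJ677 (from 1, 0.296%). As a mean over cells it was 2 in NEJ638 (2.25%) and 1 in NEJ654 (3.48%), and with the gate 2 in NEJ638 (5.72%) and 3 in NEJ677 (10.6%). In NEJ654 it was 0 with doublets kept (2.78%) and 1 at a minimum of 100 CPM (4.95%). Among stage differences of 2-fold or more, the sign turned with haemoglobin in the total for Gata1 in NEJ709 (log2 -0.30) and NEJ687 (-0.066), Klf1 in NEJ634 (-0.15) and NEJ687 (-0.13) and Zfpm1 in NEJ687 (-0.0077), and with stage limits of 10, 40 and 70% for Gfi1b in NEJ709 (0.46). Apart from the total and the number of libraries, which act by construction, the cause was not tested. Of 458 recomputed stage differences 420 kept their sign, and 6 of 339 that were past 2-fold turned. In the 4 libraries as reported, Nfe2 was past 2-fold under every alternative named here that was recomputed per library, and Myb under all but the gate per cell, which called Gfi1b and Bcl11a lower in its place. Low counts limit Gata2 after the first stage, and Gata1, Gata2 and Gfi1b above 80% haemoglobin, where 3 libraries held 0 UMIs of each.

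The labels give neither groups nor replicate numbers, so no replicate block was fitted. Stages were compared within each library, as values, and no test over the 4 libraries was made.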
